A study of Mus musculus with 8 samples.

Results

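A group of 10 genes for the enzymes and the chaperone that modify, fold and crosslink collagen was followed in cochlear RNA of mice that lack miR-29a. The group holds the 5 lysyl oxidase genes (Lox, Loxl1, Loxl2, Loxl3 and Loxl4), the lysyl hydroxylase genes Plod1 and Plod2, the prolyl 4-hydroxylase alpha subunit genes P4ha1 and P4ha2, and Serpinh1, which encodes the collagen chaperone HSP47. These 10 genes were taken by their symbols from the 21895 genes of the expression table. The selection rule uses no measured value, but the set was proposed with earlier results of these data known. All 10 passed the filter on low values described below.

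Cochlear RNA of mice homozygous for a global deletion of miR-29a (miR-29a-/-, called KO) was compared with RNA of wild-type mice (WT), both on the C57BL/6 background and from crosses of heterozygotes. There were 4 libraries per group, numbered WT1 to WT4 and KO1 to KO4, while the study's own plot of this comparison states 3 per group. The records of the series give an age of 21 days and the methods of the study give 2 months, so the age is uncertain. The deletion was present in every cell of the body, both sexes were included, and nothing states whether each library came from a separate animal, so that p-values measure the spread between libraries. Values are FPKM, fragments per kilobase of transcript scaled to the mapped fragments of the library. miR-29a itself was not measured in these libraries, and the genotype could not be checked from the values.

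Collagen chains are modified while they are still in the endoplasmic reticulum. Prolyl 4-hydroxylases make the hydroxyproline that keeps the triple helix stable at body temperature, lysyl hydroxylases make the hydroxylysine that carries sugars and takes part in crosslinks, and HSP47 binds the folded helix until it leaves the compartment. Outside the cell, lysyl oxidases, which need copper, oxidize lysine and hydroxylysine residues of collagen and elastin, and the aldehydes so formed condense into the crosslinks that give the fibre its strength. In the cochlea, collagen forms much of the basilar membrane, the tectorial membrane and the spiral ligament, and the surrounding bone is also rich in it. The miR-29 family is known as a repressor of collagen and other extracellular matrix (ECM) genes.

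The mature strands of the miR-29 family are shown because their seed, bases 2 to 8, is the part that pairs with a messenger RNA and is searched for further on. The sequences are those of RefSeq, with the seed in capitals.
miR-29a-3p: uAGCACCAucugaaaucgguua
miR-29b-3p: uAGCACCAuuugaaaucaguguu
miR-29c-3p: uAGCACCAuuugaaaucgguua
The 3 seeds are identical. Outside the seed, miR-29c-3p differs from miR-29a-3p at 1 position and miR-29b-3p at 4 positions. The labels name only miR-29a as deleted.

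The libraries had relative depths of 0.953 to 1.16 times their median, as estimated from the lowest values. The libraries did not group by genotype throughout. In Pearson correlations of log2 values, WT1 was nearer to every KO library (0.852 to 0.920) than to any other WT library (0.725 to 0.821). KO4 was nearer to WT2 and WT4 (0.960 and 0.963) than to any other KO library (0.924 to 0.946). In the measures that follow, WT1 and WT3 stood apart from the others. The gene Gm8797 held 7.09% of the summed FPKM of WT1 and at most 0.0918% in any other library. The 10 highest genes held 17.6% in WT1 and 8.50% to 10.9% elsewhere. The median-ratio scaling factor used further on was 0.776 for WT1 and 0.939 to 1.09 for the others. The summed FPKM of 6 neutrophil markers was 9064 in WT1 and 51.2 in WT3, against 627 to 4876 in the other 6 libraries, and that of 6 osteoblast markers was 39.7 in WT3 against 188 to 381 in the other 7. The summed FPKM of 5 erythroid markers was 437 in WT3, 2313 to 6931 in the other WT libraries and 4732 to 11632 in KO. None of these markers was at 0 in any library, and the 2 groups overlapped for each of the 3 sums. KO3 stood apart for 5 skeletal muscle markers, which summed to 230 FPKM there, 20.5 in KO4 and 0.209 to 4.70 in the other 6 libraries, with 2 of the 5 markers at 0 in at least 1 library. The 5 fibroblast markers summed to 3993 to 5729 FPKM in WT and 4665 to 6386 in KO. Markers of the cochlea were present in all libraries: 5 hair cell markers summed to 14.2 to 27.0 FPKM and 4 markers of spiral ligament fibrocytes to 1606 to 2527 FPKM. The 4 stria vascularis markers summed to 37.2, 60.8, 85.4 and 70.3 FPKM in WT1 to WT4 and 41.0 to 56.6 in KO. WT1 was thus below every KO library and the other WT libraries were above. The 4 chondrocyte markers, 1 of them at 0 in at least 1 library, summed to 21.9 FPKM in WT1 and 53.8 to 99.4 elsewhere. In RNA from a whole tissue, fewer cells of a type and less RNA per cell cannot be told apart.

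Of 14990 genes tested with limma on log2(FPKM + 0.1), 767 (5.12%) passed the threshold of the study, an unadjusted p-value (two-sided) below 0.05, of which 691 (4.61%) were higher in KO and 76 lower. After Benjamini-Hochberg adjustment over all tested genes, 0 passed 0.05. Over all tested genes the median log2 fold change was 0.10. The share of higher genes among those called was 90.1%, and it was 52.5% when the libraries were scaled by median ratios, which moved the median of all genes to 0.00. Among the 10 collagen enzyme genes, 2 (Lox and Loxl2) were higher in KO at this threshold and 0 were lower. All 10 log2 fold changes were above 0, with a median of 0.32, beside 9962 of the 14990 tested genes above 0. All 10 remained above 0 under median-ratio scaling, with a median of 0.22, although Loxl3 was below 0 after quantile normalization. The lowest KO library was above the highest WT library for 3 of the 10 genes (Lox, Loxl2 and Loxl4), beside 3.02% of all tested genes. After median-ratio scaling this held for 1 of the 10 genes (Loxl2), beside 1.85% of all tested genes.

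**Figure D1:**
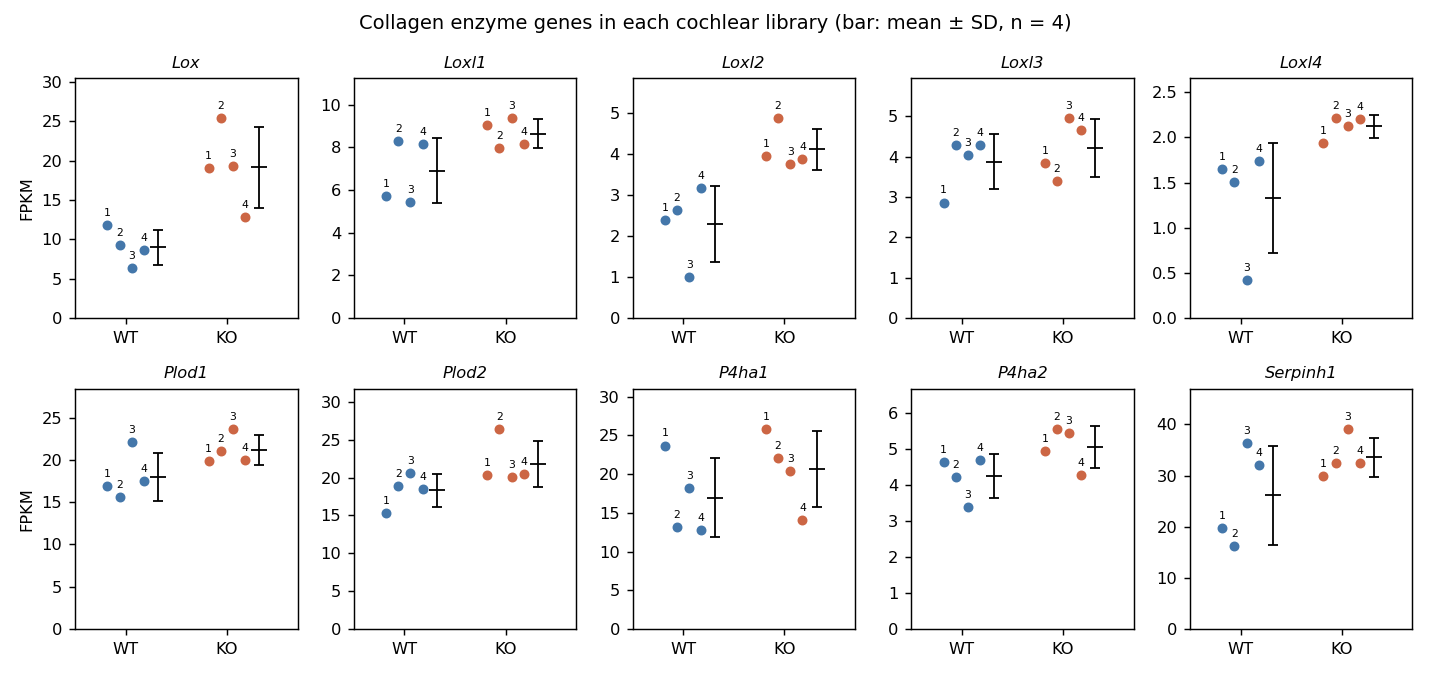
FPKM of each of the 10 genes (vertical axes, each from 0) in the 4 WT (blue) and 4 KO (orange) libraries, numbered as the libraries are, with the mean ± SD beside each group. The groups are apart for Lox, Loxl2 and Loxl4 and overlap for the other 7 genes, and WT3 is the lowest library for Lox, Loxl1, Loxl2, Loxl4 and P4ha2.

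The levels of the genes covered a wide range. Averaged over the 8 libraries, FPKM, which are scaled to transcript length, were 29.8 for Serpinh1, 20.1 for Plod2, 19.6 for Plod1, 18.8 for P4ha1, 14.1 for Lox, 7.78 for Loxl1, 4.65 for P4ha2, 4.04 for Loxl3, 3.21 for Loxl2 and 1.73 for Loxl4. The order of Lox, Loxl1 and P4ha2 was the same in 8 of 8 libraries, and Loxl4 was below Loxl2 in 8 of 8. Plod2, Plod1 and P4ha1 were not separable, since each was above the next in 5 of 8 libraries.

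Lox, the founding lysyl oxidase, which acts on collagen and elastin, showed the largest change of the 10. Its level was 11.8, 9.24, 6.38 and 8.60 FPKM in WT1 to WT4 and 19.0, 25.4, 19.3 and 12.9 FPKM in KO1 to KO4. Every KO library was above every WT library, although KO4 was only slightly above WT1. The mean was 9.01 ± 2.24 FPKM in WT and 19.1 ± 5.10 FPKM in KO (SD, n = 4 each), a ratio of 2.12, with a log2 fold change of 1.07 (SE 0.25, 95% confidence interval 0.51 to 1.64, limma, unadjusted p = 0.00209, adjusted p = 0.922). The unadjusted p-value for Lox stayed under 0.05 in all 17 alternative settings, where the log2 fold change was 0.92 to 1.25. After median-ratio scaling the groups overlapped, because WT1 then stood at 15.2 and KO4 at 12.2. The neutrophil markers and Gm8797 were highest in WT1, and their part in the Lox values was not tested.

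Loxl2 encodes a lysyl oxidase-like enzyme that acts on the collagen IV of basement membranes. Its level was 2.40, 2.63, 0.999 and 3.17 FPKM in WT1 to WT4 and 3.95, 4.88, 3.77 and 3.88 FPKM in KO1 to KO4. The groups did not overlap, and WT3 lay far below the other WT libraries. The mean rose from 2.30 ± 0.926 to 4.12 ± 0.509 FPKM (SD, n = 4 each), with a log2 fold change of 0.92 (SE 0.33, 95% confidence interval 0.16 to 1.68, limma, unadjusted p = 0.0236, adjusted p = 0.947). Without WT3, the library low in bone and marrow markers, the log2 fold change was 0.58 (limma, unadjusted p = 0.0192), and without KO2 it was 0.83 (limma, unadjusted p = 0.0624). Of the 50-base words of the Loxl2 transcripts, 42.9% also occur in Gm21451, an unprocessed pseudogene on the same chromosome that has no row in the table, so the level of Loxl2 depends on how such reads were assigned and is uncertain.

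Loxl4, the least abundant of the 10, had 1.65, 1.51, 0.428 and 1.74 FPKM in WT1 to WT4 and 1.94, 2.21, 2.13 and 2.20 FPKM in KO1 to KO4. The groups did not overlap, the KO libraries lay close together, and WT3 again was far below the rest. After median-ratio scaling the groups overlapped, because WT1 then stood at 2.12 and the KO libraries at 1.97 to 2.09. The mean was 1.33 ± 0.610 in WT and 2.12 ± 0.124 FPKM in KO (SD, n = 4 each), and the log2 fold change of 0.79 (SE 0.40, 95% confidence interval -0.13 to 1.71) did not pass (limma, unadjusted p = 0.0839, adjusted p = 0.947). On leaving out 1 library, the log2 fold change of Loxl4 was lowest without WT3 (0.36) and highest without WT4 (0.96). With a pseudocount of 1 it was 0.47. The low osteoblast and marrow markers of WT3 moved with the low Loxl2 and Loxl4 of that library, and their part in the difference was not tested.

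Loxl1, which crosslinks elastin, had 5.73, 8.30, 5.45 and 8.18 FPKM in WT and 9.05, 7.98, 9.35 and 8.17 FPKM in KO, in library order. The groups overlapped, with WT1 and WT3 low and WT2 and WT4 among the KO values. Its log2 fold change was 0.34 (95% confidence interval -0.07 to 0.75, limma, unadjusted p = 0.0958). Loxl3, which oxidizes fibrillar collagen and fibronectin, ranged from 2.87 to 4.30 FPKM in WT and from 3.39 to 4.95 FPKM in KO. Its log2 fold change of 0.12 (95% confidence interval -0.35 to 0.59) was the smallest of the 10 and changed sign with the scaling, being -0.04 after quantile normalization and -0.01 without WT1.

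Summed over the 5 lysyl oxidase genes, FPKM was 24.4, 26.0, 17.3 and 26.0 in WT1 to WT4 and 37.8, 43.8, 39.5 and 31.8 in KO1 to KO4. All KO sums were above all WT sums, with means of 23.4 ± 4.15 and 38.2 ± 4.98 FPKM (SD, n = 4 each). That separation depends on scaling: the median-ratio factor was 0.776 for WT1 and 1.06 for KO4. Divided by these factors, the sum of WT1 lies above that of KO4, so the groups overlap. Within a library, where scaling has no part, Lox made up 33.1% to 48.3% of this sum in WT and 40.5% to 57.9% in KO. The share of Lox averaged 38.5% ± 6.75 in WT against 49.4% ± 7.11 in KO (SD, n = 4 each), and the groups overlapped because WT1 had a Lox share within the KO range. The share of Loxl1 averaged 29.6% ± 4.12 in WT and 22.9% ± 3.23 in KO, and that of Loxl3 averaged 17.0% ± 4.79 in WT and 11.3% ± 2.98 in KO (SD, n = 4 each), again with overlap. The shares of Loxl2 (9.48% and 10.8%) and Loxl4 (5.43% and 5.63%) were close in the means of WT and KO.

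Neither lysyl hydroxylase gene changed at the threshold. Plod1, whose enzyme acts on lysines of the triple helix, had 16.9, 15.6, 22.1 and 17.5 FPKM in WT1 to WT4 and 19.9, 21.0, 23.6 and 20.0 FPKM in KO1 to KO4. Only WT3 reached the KO range. Its log2 fold change was 0.24 (95% confidence interval -0.09 to 0.56, limma, unadjusted p = 0.132), and it ranged from 0.17 without WT2 (limma, unadjusted p = 0.304) to 0.34 without WT3 (unadjusted p = 0.0337). Plod2, whose enzyme hydroxylates the telopeptides where crosslinks form, had 15.4, 18.9, 20.6 and 18.5 FPKM in WT1 to WT4 and 20.4, 26.4, 20.1 and 20.4 FPKM in KO1 to KO4. KO2 was well above the other 3 KO libraries, which lay near WT3. Its log2 fold change was 0.25 (95% confidence interval -0.09 to 0.58, limma, unadjusted p = 0.128), and without KO2 it was 0.15. The ratio of Plod2 to Plod1 within a library averaged 1.03 ± 0.139 in WT and 1.04 ± 0.167 in KO (SD, n = 4 each), so the balance of telopeptide to helical lysyl hydroxylase transcripts differed by less than its spread.

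The prolyl 4-hydroxylase subunits also stayed short of the threshold. P4ha1, the main catalytic subunit in most cells, had 23.7, 13.1, 18.1 and 12.8 FPKM in WT1 to WT4 and 25.8, 22.1, 20.4 and 14.1 FPKM in KO1 to KO4. The groups were interleaved, with WT1 second only to KO1. Its log2 fold change was 0.29 (95% confidence interval -0.28 to 0.87, limma, unadjusted p = 0.276), and it ranged from 0.18 without KO1 to 0.47 without WT1. P4ha2, the subunit of cartilage and bone cells, ranged from 3.39 to 4.70 FPKM in WT and from 4.28 to 5.56 FPKM in KO, and 3 of 4 KO libraries were above all WT libraries. Its log2 fold change was 0.25 (95% confidence interval -0.14 to 0.65, limma, unadjusted p = 0.181). The ratio of P4ha2 to P4ha1 averaged 0.268 ± 0.0905 in WT and 0.253 ± 0.0470 in KO (SD, n = 4 each) and also differed by less than its spread.

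Serpinh1 was the most abundant of the 10, with 19.7, 16.3, 36.4 and 32.1 FPKM in WT1 to WT4 and 30.0, 32.5, 39.1 and 32.5 FPKM in KO1 to KO4. The WT libraries fell into a low and a high pair, and the high pair, WT3 and WT4, lay within the KO range. The log2 fold change of Serpinh1 was 0.43 (95% confidence interval -0.16 to 1.02, limma, unadjusted p = 0.134), and it ranged from 0.23 without WT2 (limma, unadjusted p = 0.352) to 0.62 without WT3 (unadjusted p = 0.0331). Unlike Loxl2 and Loxl4, Serpinh1, Plod1 and Plod2 were at their WT maximum in WT3. Without WT3, 4 of the 10 genes were called higher (Lox, Loxl2, Plod1 and Serpinh1), beside 3.58% of all genes tested, and without KO2 only Lox was, beside 2.16%. Without WT1 there were 2, while the share of all tested genes called higher was 12.1%.

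**Figure D2:**
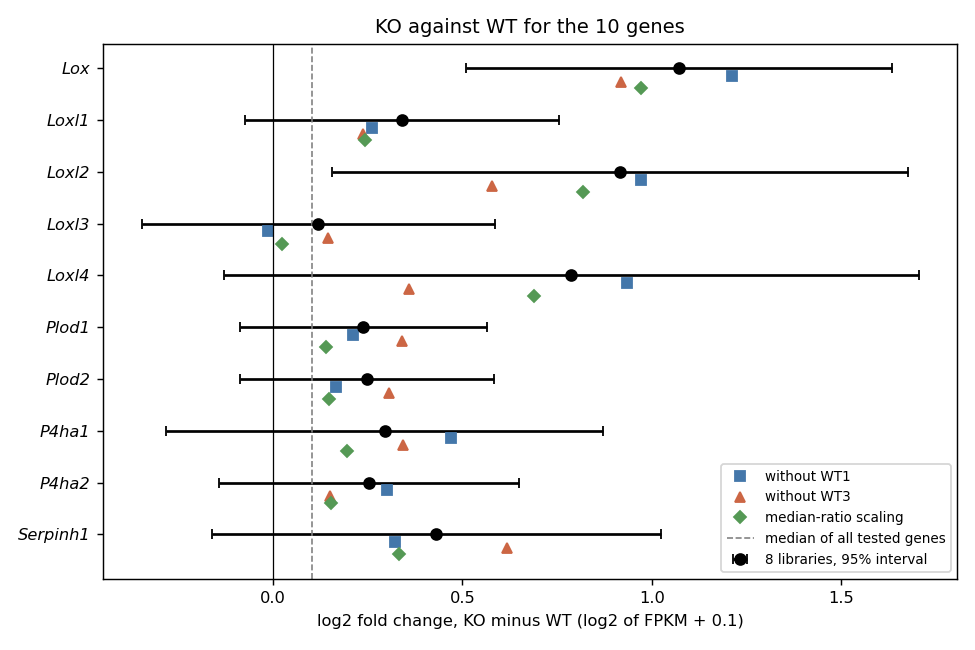
Log2 fold change of KO against WT for each gene (horizontal axis, log2 of FPKM + 0.1), with the 95% confidence interval over 8 libraries (black) and the values without WT1, without WT3 and after median-ratio scaling. The dashed line is the median of all tested genes, 0.10, and the intervals of Lox and Loxl2 alone lie above 0.

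The enzymes were then set against their substrate. The summed FPKM of the fibrillar collagen genes Col1a1, Col1a2 and Col3a1 was 290, 472, 184 and 470 in WT1 to WT4 and 607, 873, 763 and 808 in KO1 to KO4. All KO libraries were above all WT libraries, with means of 354 ± 142 and 763 ± 113 FPKM (SD, n = 4 each). This sum was higher in every KO library than in any WT library, which lowers any gene divided by it in KO: the mean per 100 FPKM of fibrillar collagen was lower in KO for all 10 enzyme genes, beside 98.5% of all tested genes. Every KO library was below every WT library for 5 of the 10 (Loxl1, Loxl3, Plod1, Plod2 and P4ha2), beside 59.5% of all tested genes, so neither count sets the enzyme genes apart. These values share 1 denominator, were computed for genes other than Serpinh1 after the data had been seen, and are given without a test.

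Per 100 FPKM of fibrillar collagen, Lox stood at 4.08, 1.96, 3.46 and 1.83 in WT1 to WT4 and at 3.14, 2.91, 2.52 and 1.60 in KO1 to KO4. The groups overlapped, with means of 2.83 ± 1.11 and 2.54 ± 0.679 (SD, n = 4 each). Loxl2 stood at 0.651 ± 0.131 in WT and 0.546 ± 0.0779 in KO on this scale, also with overlap. Plod2 stood at 5.30, 4.005, 11.2 and 3.93 in WT1 to WT4 and at 3.36, 3.02, 2.63 and 2.53 in KO1 to KO4, without overlap. Serpinh1 per 100 FPKM of collagen was 6.78, 3.45, 19.8 and 6.82 in WT and 4.94, 3.72, 5.12 and 4.03 in KO. WT3, which had the lowest collagen sum, was far above the other libraries for Plod2 and Serpinh1, and the Serpinh1 groups overlapped through WT2.

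The 3′-UTRs of the 10 genes were searched for the 7-base complement of the miR-29 seed, TGGTGCT, on the transcript strand of the longest annotated 3′-UTR of each gene. A match is a stretch of letters and was not tested as a binding site. It was found in 4 of the 10 genes (40.0%) and in 2294 of 14832 tested genes with an annotated 3′-UTR (15.5%). The median 3′-UTR was 1275 bases long for the 10 genes and 1181 bases for all tested genes. Lox had 3 matches in a 3′-UTR of 3160 bases, starting at bases 472, 1347 and 2712. Loxl2 had 2 in 2715 bases, and Lox and Loxl2 had the longest 3′-UTRs of the 10 genes. Loxl4 and Plod1 had 1 match each, and Loxl1, Loxl3, Plod2, P4ha1 (2230 bases), P4ha2 and Serpinh1 had 0. Another form of seed match lacks the first T and is followed by an A. Serpinh1 had 1 of this form, and among the other members it occurred only within the 2 matches of Loxl2.

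The matches outside Lox are shown with the bases before them, on the transcript strand of GRCm38, with the 7-base match in capitals, since these are the stretches that the miR-29a seed could pair with. All 4 lie in 3′-UTR exons.
Loxl2, first match, chr14:69694733-69694755, plus strand: ccccagctcatggaaTGGTGCTa
Loxl2, second match, chr14:69695095-69695117, plus strand: agatagcattgtgaaTGGTGCTa
Loxl4, chr19:42595020-42595042, minus strand: aaggccccctctaagTGGTGCTt
Plod1, chr4:147910527-147910549, minus strand: gactggggctgcccaTGGTGCTc
Both Loxl2 matches were followed by an A, which gives the 8-base match TGGTGCTA. This longer match was found in 1 of the 10 genes, beside 3.38% of all tested genes with a 3′-UTR.

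The 3 genes whose KO and WT libraries did not overlap, Lox, Loxl2 and Loxl4, were among the 4 with a match, and Plod1 was the fourth. After median-ratio scaling only Loxl2 remained without overlap. The median log2 fold change was 0.85 over the 4 genes with a match and 0.27 over the 6 without, among them Serpinh1 with its other form of match. Over all tested genes the same medians were 0.11 for 2294 genes with a match and 0.10 for 12538 without. Of the 2294 genes with a match, 154 were called higher in KO and 7 lower. Of the 12538 without, 521 were called higher and 67 lower. Loxl2 and Loxl4 both came nearer to the other genes when WT3 was left out, at 0.58 and 0.36. Lox stayed at 0.92 and Plod1 was at 0.34. Of the genes without a match, Serpinh1 was then at 0.62, above Loxl2, and P4ha1 was at 0.34 and Plod2 at 0.31, near Loxl4 and Plod1. Loxl1 was at 0.24, P4ha2 at 0.15 and Loxl3 at 0.15.

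**Figure D3:**
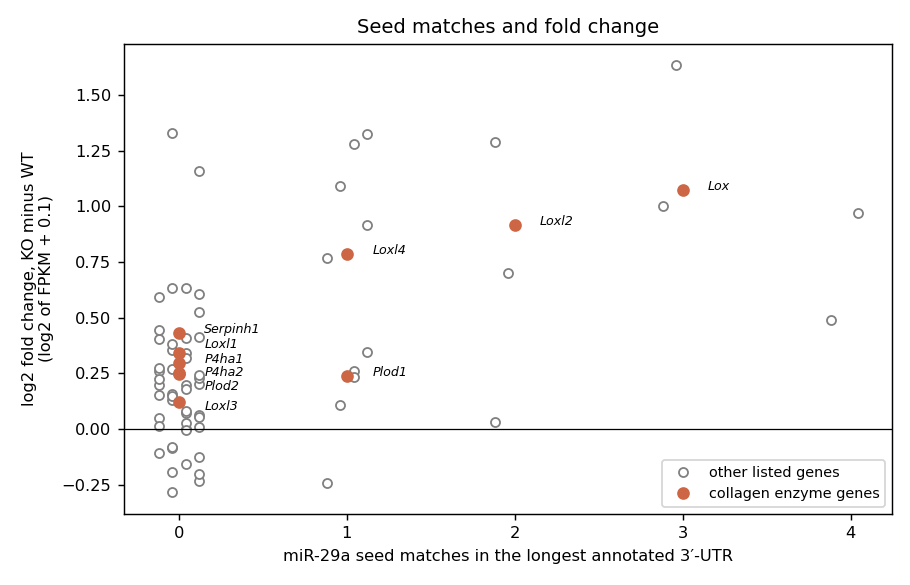
Log2 fold change of KO against WT (vertical axis, log2 of FPKM + 0.1) by the number of 7-base matches to the miR-29 seed in the longest annotated 3′-UTR (horizontal axis, points set side by side for clarity) for the 10 genes (filled, named) and 65 other tested genes of collagen biosynthesis (open). The 10 genes lie at 0.12 to 0.43 without a match and reach 1.07 for Lox with 3, and Plod1 with 1 match lies at 0.24.

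The remaining steps of collagen biosynthesis were described by 6 further lists of 69 genes, of which 65 were tested, 13 were higher in KO and 0 lower (4.61% of all tested genes were higher). Most of the higher genes encode substrates. Of 12 collagen and elastin genes, 9 were higher, with a median log2 fold change of 1.05. For all 9 the groups did not overlap, beside 3.02% of all tested genes. Examples were Col3a1 of type III collagen (28.4 ± 5.44 FPKM in WT and 59.8 ± 2.45 in KO, SD, n = 4 each), Col5a1 of type V collagen (8.43 ± 2.12 and 16.3 ± 1.44) and Col4a2 of basement membranes (10.1 ± 3.89 and 23.1 ± 1.25). After median-ratio scaling 9 of the 12 also did not overlap, with Col2a1 in place of Col11a1, beside 1.85% of all tested genes. The median of 0.32 over the 10 enzyme genes was thus lower than that over their substrates, and only Lox exceeded the substrate median.

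The other modifying enzymes gave few calls. Among 11 other hydroxylases and glycosyltransferases, 1 was higher and 0 lower, with a median log2 fold change of 0.13. The gene called was P3h1, a prolyl 3-hydroxylase (5.01 ± 0.501 FPKM in WT and 6.38 ± 0.229 in KO, log2 fold change 0.35, limma, unadjusted p = 0.0357, adjusted p = 0.947), and its call was lost in 7 of 17 alternative settings, among them median-ratio scaling (0.25, unadjusted p = 0.0736). Colgalt1, which adds galactose to hydroxylysine, had a log2 fold change of -0.24 (limma, unadjusted p = 0.0975), which became -0.34 (unadjusted p = 0.0151) with that scaling. Tmem38b, whose ion channel is needed for collagen modification, had a log2 fold change of 0.41 (limma, unadjusted p = 0.0657). Without WT1, 2 of these 11 were higher and 2 (Colgalt1 and P4ha3) lower, when 12.1% of all tested genes were called higher and 7.4% lower.

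Among 15 genes for folding and export, 1 was higher and 0 lower, with a median log2 fold change of 0.18. That gene was Sparc, a collagen-binding protein of the secretory pathway and the ECM, at 323 ± 13.8 FPKM in WT and 815 ± 80.9 FPKM in KO (SD, n = 4 each, log2 fold change 1.33, limma, unadjusted p = 0.000217, adjusted p = 0.870), with no overlap also after median-ratio scaling. Klhl12 and Sec24d, parts of the machinery that loads procollagen into large transport vesicles, had log2 fold changes of 0.27 and 0.23 without a call. Serpinh1 with its 0.43 thus lay above the median of this list but far from Sparc.

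Of 11 genes for procollagen processing, 8 were tested, 1 was higher and 0 lower. It was Adamts2, the procollagen N-proteinase (7.89 ± 2.27 and 10.8 ± 0.862 FPKM, log2 fold change 0.49, limma, unadjusted p = 0.0459), whose call was lost in 8 of 17 alternative settings. Adamts14 and Pcolce were at 0.34 and 0.24 without a call, and Tll2, Mep1a and Mep1b were under the minimum level. Of 12 partners of lysyl oxidases and other crosslinkers, 11 were tested (Tgm1 was not), 1 was higher and 0 lower, with a median of 0.24. It was Tgm2, a transglutaminase that makes crosslinks of another kind, at 13.8 ± 1.32 FPKM in WT and 21.5 ± 2.99 in KO (SD, n = 4 each, log2 fold change 0.63, limma, unadjusted p = 0.00201, adjusted p = 0.922). Fbln5, which brings Loxl1 to elastin, and Fmod, which binds collagen and lysyl oxidase, were at 0.53 and 0.32 without a call. Both depended on single libraries: Fbln5 ranged from 0.27 without WT2 to 0.73 without WT1 (limma, unadjusted p = 0.0497), and Fmod from 0.18 without KO1 to 0.45 without KO4 (unadjusted p = 0.0275). Of 8 genes for oxygen sensing and the oxidation of the endoplasmic reticulum, 0 were called at an unadjusted p-value under 0.05 with limma, and Ero1lb, Vhl and Egln2 had log2 fold changes of 0.45, 0.38 and 0.61. Without WT1, where Egln2 was at 5.30 FPKM, those of Vhl and Egln2 were 0.08 and 0.04.

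**Figure D4:**
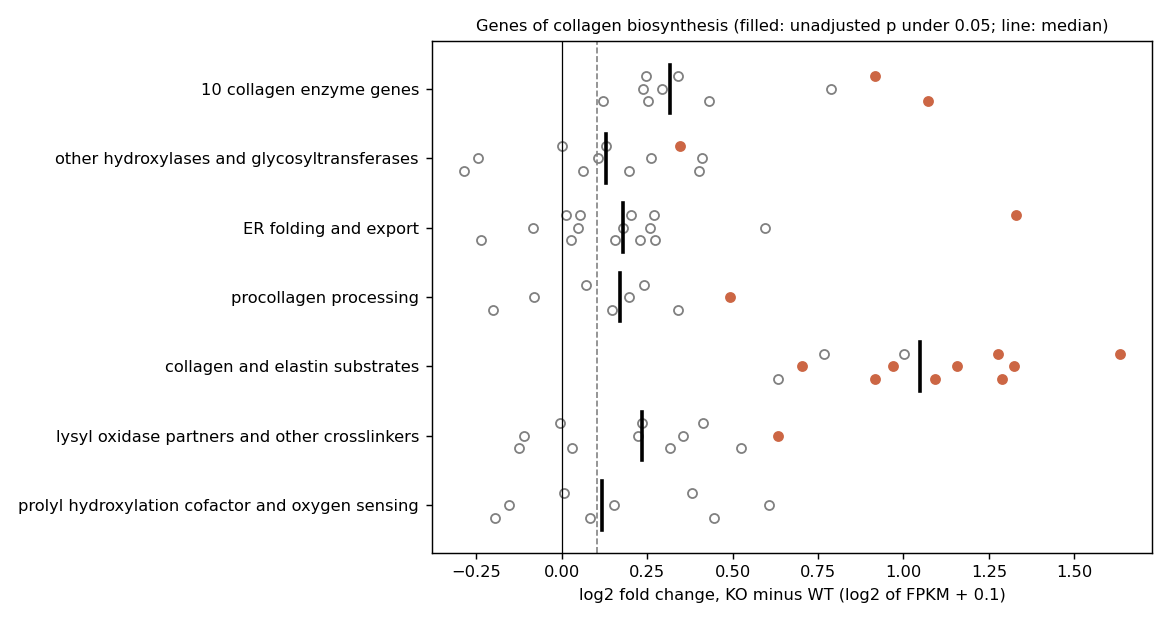
Log2 fold change of KO against WT (horizontal axis, log2 of FPKM + 0.1) for the 10 collagen enzyme genes and the 65 tested genes of the 6 further lists, each point 1 gene, filled where the unadjusted p-value was under 0.05, with the median of each list as a bar. The median of the substrates, 1.05, lies apart from those of the other lists, which run from 0.12 to 0.32, and the dashed line is the median of all tested genes, 0.10.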

How the data were processed

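Total RNA of the cochlea was sequenced in 8 strand-specific, paired-end libraries made after removal of ribosomal RNA, 4 per genotype as the labels give it. Mapping was with Hisat2, and the authors deposited 1 FPKM value per gene and library. The tool and annotation that gave the FPKM are not given in the sources used here. The labels name build mm9, but the coordinates are those of GRCm38: 19840 of 21895 genes had the coordinates of GENCODE mouse release 21, all 10 members among them. FPKM carry no counts, so counting error could not be given. All per-sample columns were used.

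Genotype was the only factor in a limma fit (version 3.58.1, R 4.3.3) to log2(FPKM + 0.1), with a mean-variance trend, over genes whose mean FPKM reached 0.5. A gene was called at an unadjusted p-value under 0.05, as in the study, which had tested counts. Adjustment was over all tested genes. Sums, ratios and sequence matches were computed with Python 3.11.15 and are descriptions. In simulated data of 14990 genes, 200 of them changed by 2 on the log2 scale, more than any member, 191 of the 200 were called and 146 passed adjustment, and smaller changes were not simulated.

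The members and lists were chosen with earlier results of these data known. Named genes are the 10 members, the 3 genes with the smallest p-values in each list and the 5 genes whose pattern was most like that of the members. Alternatives were a pseudocount of 1, no filter or a minimum of 1 FPKM, median-ratio scaling, quantile normalization, no variance trend, the replicate block, only the libraries numbered 1 to 3, and leaving out each library. Median-ratio scaling without WT1 and the division of all members and all tested genes by collagen were added after seeing the data.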

Additional observations from a re-analysis of the deposited data

Results flagged for a closer look

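Among 100 groups of 4 libraries, 8 held a library that lay far from the other 3 by Dixon's criterion, and chance gives about 1 in 20. Among the members, KO2 was the highest KO library for Loxl2 (4.88 FPKM) and Plod2 (26.4 FPKM). KO2 was also the highest KO library for Sparc, at 936 FPKM. In WT, Loxl1 made up 23.4% of the lysyl oxidase sum in WT1, below the 3 others, and Loxl3 stood at 2.19 per 100 FPKM of fibrillar collagen in WT3, above the 3 others. Outside the members, Egln2 was low in WT1 (5.30 FPKM), Hist2h2ac was low in WT3 (12.5 FPKM) and Mif4gd was low in KO4 (10.1 FPKM).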

How the results depend on the processing

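Of 170 values of the 10 members under 17 alternatives, 164 kept their direction and their side of the threshold. Loxl2 lost its call without KO2, Plod1 and Serpinh1 gained one without WT3, and Loxl3 changed sign after quantile normalization (-0.041), without WT1 (-0.015, the lowest value on leaving out a library, the highest being 0.22 without KO2) and with median-ratio scaling without WT1 (-0.0061). Leaving out 1 library gave 1 to 4 called members, 11 to 21 called genes of the other lists and 347 to 2922 of all tested genes, the last without WT1. Median-ratio scaling without WT1 gave 22 called genes of the other lists and 3252 of all tested genes. The cause was not tested. With a replicate block in the fit, 838 genes were called and 2 of the 10 members. Same-numbered libraries did not deviate together (correlations of 0.419, -0.240, -0.170 and 0.210), so the numbers are not taken as a pairing. FPKM without counts leave the precision of low values, such as those of Loxl4, open.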

Other observations

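Outside all lists, the 5 genes whose log2 values over the 8 libraries were most like the mean profile of the 10 members were Mif4gd, Kcnn4, Slbp, Chsy1 and Hist2h2ac, with Pearson correlations of 0.988, 0.986, 0.985, 0.981 and 0.977. They were chosen for this likeness, the profile itself differs between the groups, and the correlations are a description. Kcnn4, a calcium-activated potassium channel, was at 2.65 ± 0.767 FPKM in WT and 6.62 ± 1.88 in KO, and Chsy1, a chondroitin synthase, at 9.66 ± 0.708 and 12.3 ± 0.977 (SD, n = 4 each). Slbp, which binds histone messenger RNA, was at 8.53 ± 1.91 and 17.9 ± 3.74, and the histone gene Hist2h2ac at 27.1 ± 9.72 and 102 ± 33.1 (SD, n = 4 each).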
